A study of Homo sapiens with 6 samples.

Results

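Hypoxia-inducible factor 1 alpha (HIF1A) and 9 genes that HIF is known to switch on were followed in MDA-MB-231 cells depleted of the ubiquitin-specific protease USP32. The members were chosen by gene name and are HIF1A, EGLN1, EGLN3, CA9, VEGFA, ADM, ANGPTL4, NDRG1, BNIP3 and HILPDA. They are 10 of the 17646 genes listed in each library, and targets in glycolysis and collagen hydroxylation were kept out of the choice. MDA-MB-231 is an established human line of triple negative breast cancer with mesenchymal traits. Cells received a control siRNA (siControl, 3 libraries) or an siRNA against USP32 (siUSP32, 3 libraries), and both groups were sampled 48 h after transfection. The labels name no oxygen level, no drug and no genetic change in either group, and nothing says that a group's libraries were grown as separate cultures. A p-value here sets the difference between the groups only against the spread among those libraries, and that spread may be technical. The sequence and number of the siRNAs is not given in the sources used here.

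HIF is a pair of proteins, an oxygen-labile alpha subunit and the stable partner ARNT, that binds short DNA elements beside its target genes. In oxygen, prolyl hydroxylases of the EGLN family mark the alpha subunit, and the von Hippel-Lindau (VHL) ubiquitin ligase then leads it to destruction. HIF activity is thus set largely through the level of the alpha protein, which RNA libraries do not measure, and HIF in turn raises EGLN1 and EGLN3, which closes a feedback loop. In breast cancer the pathway is known for angiogenic and metabolic target genes.

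The DNA letters that HIF reads have a core written ACGTG or GCGTG. The windows below are shown because they carry that core next to a member's start site, in capitals, with 12 bases on each side. They come from RefSeq promoter windows on GRCh38.p14, 250 bases before to 50 bases after a start site, of which 8 windows matched 7 of the 10 members by symbol. Positions count from the start site to the base of the core that lies farthest upstream.
EGLN1 (core at -13, chr1:231422284-231422312, minus strand): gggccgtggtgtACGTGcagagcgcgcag
CA9 (core at -18, chr9:35673898-35673926, minus strand, opposite to the gene): tgtacgggctgtACGTGcattggaaacga
ANGPTL4 (core at -234, chr19:8363909-8363937, minus strand, opposite to the gene): gaaccgtgggagACGTGactcttctttcc
BNIP3 (core at -133, chr10:131982040-131982068, minus strand): cgcacgcgccgcACGTGccacacgcaccc
ADM (core at -101, chr11:10304960-10304988, plus strand): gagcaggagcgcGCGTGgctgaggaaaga
HIF1A (core at -204, chr14:61695297-61695325, plus strand): tggctgagagcgGCGTGggctggggtggg

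Both strands were searched. Matches may overlap: the last base of ACGTG can be the first of GCGTG, and ACGTG matches both strands where a C stands before it. ACGTG stood in 21.4%, GCGTG in 36.5% and either form in 48.4% of 35116 promoter windows of this length, so a match is common and describes the letters only. The BNIP3 window held ACGTG on both strands and 4 further GCGTG cores, the most of any member window. The EGLN3 window and a further HIF1A window (chr14:61697462-61697761) held neither form, which says nothing of elements elsewhere. The 250 bases before the start sites of ADM and EGLN3 are given because these 2 genes moved in opposite directions by clear margins, as described further on.
ADM (chr11:10304823-10305072, plus strand): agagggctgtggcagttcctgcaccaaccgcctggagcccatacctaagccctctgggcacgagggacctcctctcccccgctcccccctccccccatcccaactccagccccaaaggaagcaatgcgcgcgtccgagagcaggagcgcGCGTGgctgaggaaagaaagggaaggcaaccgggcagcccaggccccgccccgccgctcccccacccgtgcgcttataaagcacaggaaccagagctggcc
EGLN3 (chr14:33951075-33951324, minus strand): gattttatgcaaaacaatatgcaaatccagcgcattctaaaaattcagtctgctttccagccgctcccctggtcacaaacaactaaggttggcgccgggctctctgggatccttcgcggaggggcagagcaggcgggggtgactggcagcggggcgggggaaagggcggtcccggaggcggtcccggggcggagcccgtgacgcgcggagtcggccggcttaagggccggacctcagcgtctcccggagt
These 2 stretches were 68.0% and 64.0% G and C, and the single core in the ADM stretch is the one in capitals.

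The values are FPKM as the authors deposited them, a unit that divides the fragments of a gene by its length and by the library's mapped total. USP32 itself, the targeted gene, measured 7.5, 7.48 and 8.32 FPKM in siControl and 2.0, 1.88 and 2.01 in siUSP32, and was 3.96-fold lower. FPKM summed to 686376 to 694831 in siControl and to 855573 to 948641 in siUSP32 libraries, a ratio of means of 1.295, so the values of the groups are not on one common total. siUSP32 library 2 had the largest sum and the smallest median. Read depth is unknown from FPKM. The mesenchymal markers VIM, CD44, AXL, MSN and LGALS1 were present, summing to 3682 to 3922 FPKM in siControl and 4809 to 5355 in siUSP32. VIM and LGALS1 make up most of that sum, while CD44 was 3.15-fold and AXL 3.86-fold lower in siUSP32. The 5 listed luminal markers summed to 23.7 to 26.4 and to 8.39 to 9.40 FPKM, where ESR1 averaged 0.5 FPKM in siControl but ERBB2 12.03 and EPCAM 10.5. The 5 markers of leukocytes, endothelium, fibroblasts and hepatocytes summed to 2.55 to 3.42 FPKM in siControl and 1.24 to 1.39 in siUSP32, and PTPRC was listed at 0 in each siControl library.

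After USP32 depletion HIF1A RNA fell, and so did its feedback hydroxylases EGLN3 and, before correction for transcript length, EGLN1, while the targets ADM, NDRG1 and, as deposited, VEGFA rose. HIF1A was 1.85-fold, EGLN3 2.05-fold and EGLN1 1.39-fold lower. ADM was 1.72-fold, NDRG1 1.52-fold and VEGFA 1.14-fold higher. VEGFA turned lower after rescaling to a common sum and after length correction with the principal transcript, while median-ratio scaling and length correction with the longest transcript left it higher. EGLN1 lost its call under both length corrections. ANGPTL4 and HILPDA did not pass the test, and CA9 and BNIP3 lay below the minimum mean of 1 FPKM. The members therefore did not move as one group. In bulk RNA, fewer cells carrying a transcript and less of it per cell cannot be told apart.

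Of the 8 members that passed the filter on low values, 3 were called higher and 3 lower at a limma adjusted p under 0.05, with 2 not called. Over all 12003 tested genes, 33.3% were called higher and 41.3% lower, 74.6% in all, so counts of this size stand near the background. The counts given for each list further on are to be read beside these same shares. Rescaling to a common sum (TPM) changed the split over all genes from 4001 higher and 4956 lower to 1716 and 7453, and quantile normalization changed it to 5215 and 3637. Called higher and lower were 14.3% and 62.1% of tested genes after TPM rescaling, 43.4% and 30.3% after quantile normalization, 35.1% and 35.1% after length correction, and 23.2% and 33.8% without the filter. The members gave 2 higher and 6 lower, 3 and 3, 2 and 5, and 3 and 5 in those 4 settings. The groups did not overlap for 7 of the 8 tested members, against 77.8% of all tested genes. The median log2 difference of the 8 was 0.02, beside -0.06 over all tested genes.

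**Figure D1:**
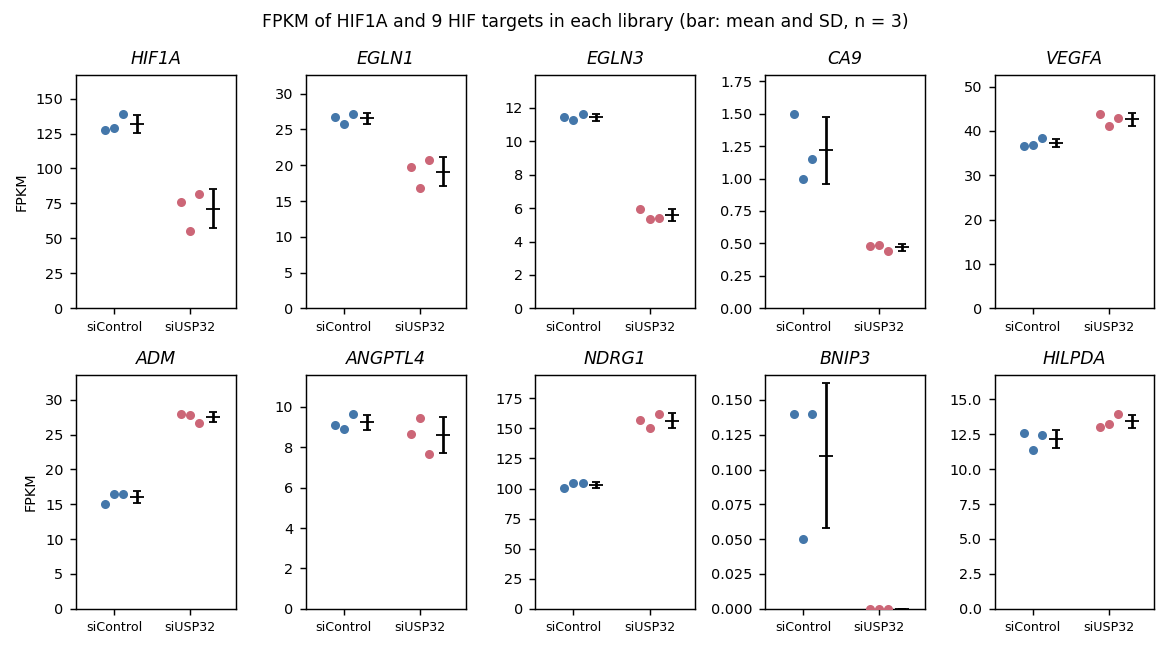
FPKM of the 10 members in each library, with points for libraries, a bar for the mean and SD of 3 libraries, and an axis from 0 in each panel. HIF1A, EGLN1, EGLN3, CA9 and BNIP3 lie lower in all siUSP32 libraries, VEGFA, ADM, NDRG1 and HILPDA lie higher as deposited (VEGFA and HILPDA turn lower after TPM rescaling), and the ANGPTL4 groups overlap.

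HIF1A (Entrez 3091, chr14:61695513-61748259 on GRCh38, plus strand, 15 exons) encodes the oxygen-regulated alpha subunit. It measured 127, 129 and 139 FPKM in siControl and 76.3, 55.4 and 81.9 FPKM in siUSP32. The highest siUSP32 library lay well below the lowest siControl library, and siUSP32 library 2 was lowest of all. The mean fell from 132 ± 6.44 to 71.2 ± 14.0 FPKM (SD, n = 3 each), a log2 difference of -0.90 ± 0.13 (SE, limma adjusted p = 1.59e-04). The difference was between -1.27 and -0.70 under the 17 alternative settings and was called in each. Without siUSP32 library 2 it was -0.73. HIF1A ranked above 93.9% of tested genes in siControl and above 87.0% in siUSP32. The antisense genes HIF1A-AS1 and HIF1A-AS2 overlap its exons on the other strand, and how strand was handled is not given in the sources used here, so reads of these genes cannot be told apart from those of HIF1A. AL137129.1 overlaps its exons on the same strand, where strand would not separate the reads.

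The other HIF subunits were read from a list of 5 genes that also holds HIF1A. EPAS1, which encodes the second oxygen-regulated subunit HIF-2 alpha, measured 12.2, 13.6 and 13.7 FPKM in siControl and 5.16, 4.6 and 4.99 in siUSP32. Its groups lay far apart, with a 2.68-fold lower mean (-1.26 ± 0.07 SE, limma adjusted p = 4.04e-07). ARNT, the shared partner of both alpha subunits, fell from 9.13 ± 0.211 to 6.69 ± 0.788 FPKM (-0.40, adjusted p = 0.00173). That call was lost after quantile normalization (-0.11, adjusted p = 0.174) and after length correction (-0.09, adjusted p = 0.164). ARNT2 averaged 0.610 and 0.563 FPKM and HIF3A at most 0.00667, and neither was tested. All 3 tested genes of this list, the member HIF1A with EPAS1 and ARNT, were thus called lower with FPKM as deposited. HIF1A made up 90.9% ± 0.379 of the summed HIF1A and EPAS1 FPKM in siControl and 93.4% ± 0.985 in siUSP32, ranges of 90.5% to 91.2% and 92.3% to 94.3%.

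EGLN1 and EGLN3 encode the prolyl hydroxylases PHD2 and PHD3, which hydroxylate HIF alpha subunits and are themselves HIF targets. EGLN3 (chr14:33924231-34462774, minus strand, 5 exons) measured 11.4, 11.2 and 11.7 FPKM in siControl and 5.97, 5.33 and 5.43 in siUSP32. The libraries of each group agreed closely and the groups lay far apart. EGLN3 fell by 0.92 ± 0.06 on the log2 scale (SE, limma adjusted p = 1.69e-06) and was called lower under all 17 alternatives, from -1.28 to -0.64.

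EGLN1 (chr1:231363751-231425044, minus strand, 5 exons) measured 26.7, 25.7 and 27.2 FPKM in siControl and 19.7, 16.8 and 20.7 in siUSP32. Every siUSP32 library lay below every siControl library, again with library 2 lowest. On the log2 scale the groups differed by -0.46 ± 0.08 (SE, limma adjusted p = 5.12e-04). EGLN1 has a long transcript of 7097 bases, and its call was lost when the libraries were corrected for transcript length, at -0.0027 (adjusted p = 0.963), or at -0.05 (adjusted p = 0.419) with each gene's longest transcript. The fall of EGLN1 therefore rests on values without a length correction, whereas that of EGLN3 was -0.93 with it.

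EGLN2 encodes PHD1, the third prolyl hydroxylase, and is not among the members. It measured 14.8, 13.5 and 14.3 FPKM in siControl and 20.2, 20.4 and 17.7 in siUSP32. It was higher in each siUSP32 library (0.43 ± 0.07 SE, limma adjusted p = 4.62e-04), a call lost after TPM rescaling (0.08, adjusted p = 0.354). The 3 transcripts together gave 52.2 ± 1.54 FPKM in siControl and 44.1 ± 1.67 in siUSP32. EGLN2 made up 27.2% ± 0.664 of that sum in siControl and 44.1% ± 3.801 in siUSP32, while EGLN1 went from 50.9% ± 0.367 to 43.3% ± 3.87 and EGLN3 from 21.9% ± 0.364 to 12.6% ± 0.329. A single scaling factor for a library leaves these shares as they are, whereas length correction moved EGLN1 and EGLN3 by different amounts, as given above. Each of the 3 shares lay in ranges that did not overlap between the groups.

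**Figure D2:**
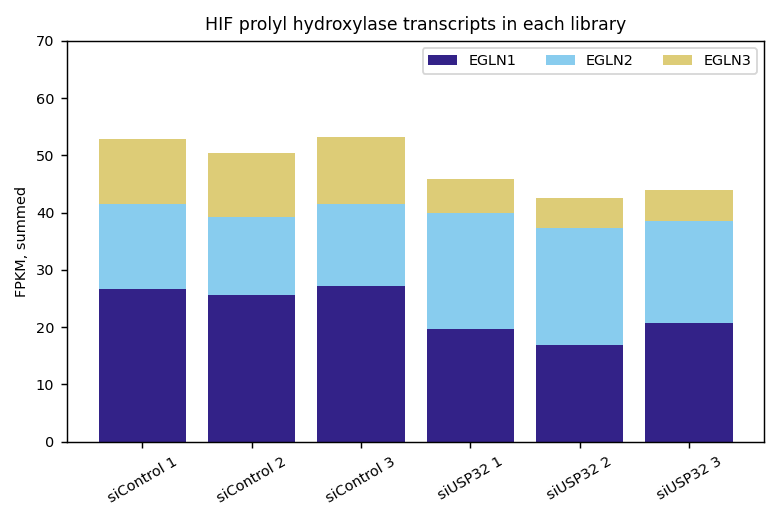
Stacked FPKM of EGLN1, EGLN2 and EGLN3 in each of the 6 libraries, on an axis from 0. The total is 52.2 FPKM on average in siControl and 44.1 in siUSP32, and the EGLN2 segment takes 27.2% and 44.1% of it while the EGLN3 segment takes 21.9% and 12.6%.

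The list of 14 genes that sense oxygen and degrade HIF counts EGLN1, EGLN2 and EGLN3 again. It held 5 called higher, 7 called lower and 2 not called, with a median log2 difference of -0.20. After TPM rescaling it held 3 higher and 9 lower, and after length correction 4 and 3. SIAH2, a ubiquitin ligase that targets prolyl hydroxylases, measured 16.7, 16.7 and 16.1 FPKM in siControl and 38.4, 38.3 and 37.9 in siUSP32. It was 2.32-fold higher in tightly grouped libraries (1.17 ± 0.05 SE, limma adjusted p = 5.67e-08). OS9, an endoplasmic reticulum lectin also described as a partner of HIF-1 alpha, went from 61.4 ± 2.15 to 12.2 ± 0.228 FPKM, 5.03-fold lower. HIF1AN, which encodes the asparaginyl hydroxylase FIH, fell by 0.58 on the log2 scale as deposited but stood at 0.01 after length correction (adjusted p = 0.841). LIMD1, a scaffold that joins hydroxylases with VHL, fell by 0.72, which was not called after length correction (-0.15, adjusted p = 0.0647).

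The parts of the VHL ligase did not move in one direction. VHL, its substrate receptor, fell by 0.24 (limma adjusted p = 0.0183), which was not called after median-ratio scaling, quantile normalization or length correction (adjusted p = 0.155, 0.221 and 0.304). The elongins ELOB and ELOC, which link VHL to the scaffold, both rose by 0.63, where ELOC kept its call under the 3 other scalings and both length corrections and ELOB lost it with the longest transcript lengths (0.11, adjusted p = 0.112). The scaffold CUL2 fell by 0.22, but turned to 0.02 after length correction, and the ring protein RBX1 rose by 0.24 but turned to -0.13 after TPM rescaling and -0.19 after length correction. NAE1 and SIAH1 were not called as deposited. Both were called lower after TPM rescaling, and NAE1 was called higher after median-ratio scaling.

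Among the secreted members, ADM encodes adrenomedullin, a peptide that dilates vessels and promotes their growth. ADM (Entrez 133, chr11:10304680-10307397, plus strand, 3 exons) measured 15.1, 16.5 and 16.5 FPKM in siControl and 28.0, 27.8 and 26.7 in siUSP32. The 3 siUSP32 libraries lay close together and far above the siControl libraries. The mean rose from 16.03 ± 0.820 to 27.5 ± 0.695 FPKM (0.74 ± 0.06 SE, limma adjusted p = 3.34e-06), and ADM was called higher under all 17 alternatives, from 0.39 to 0.88. Of the receptor parts for adrenomedullin, the core receptor CALCRL averaged 0.05 and 0.00667 FPKM and was not tested. RAMP1, an accessory protein that steers that receptor toward another ligand, CGRP, rose 2.02-fold, from 7.56 ± 0.275 to 15.3 ± 2.19 FPKM. RAMP2, which makes CALCRL an adrenomedullin receptor, was not called as deposited, at 3.19 ± 0.664 and 3.20 ± 0.271 FPKM. These 2 tested genes were both called higher after quantile normalization. After either length correction 1 of them was called higher and 1 lower. RAMP3 averaged 0.593 FPKM in siControl and 0.163 in siUSP32 and was not tested.

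VEGFA, the main growth factor of blood vessels (Entrez 7422, chr6:43770184-43786487, plus strand), measured 36.7, 36.8 and 38.4 FPKM in siControl and 43.9, 41.1 and 42.8 in siUSP32. All siUSP32 libraries were above all siControl libraries, by a small margin. On the log2 scale the groups differed by 0.19 ± 0.05 (SE, limma adjusted p = 0.00768). It turned to -0.18 after TPM rescaling (adjusted p = 0.0465) and to -0.23 after length correction (adjusted p = 0.0109), and lost its call after quantile normalization (0.12, adjusted p = 0.0558). The annotation gives VEGFA transcripts from 1199 bases for the one used here to 12167 bases for the longest, and with the longest the length-corrected difference was 0.75 (adjusted p = 2.64e-06). The direction for VEGFA is thus not settled by these values.

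The receptor FLT1 and the co-receptors NRP1 and NRP2 of the VEGF family fell. Of 8 listed genes, 6 were tested, with 4 called lower and 2 higher, beside 41.3% and 33.3% of all tested genes. A count over so few genes is not read as a result about the list. The neuropilins NRP1 and NRP2, co-receptors for VEGF, were 7.77-fold and 4.85-fold lower, NRP1 going from 35.3 ± 0.989 to 4.55 ± 0.361 FPKM. The receptor FLT1 was 6.82-fold lower at low levels (3.27 ± 0.136 to 0.480 ± 0.104 FPKM), and the receptors KDR and FLT4 were not tested, KDR averaging 0.0100 FPKM in both groups and FLT4 0.0467 and 0.0133. The ligand VEGFC fell by 0.33, a call lost after quantile normalization (-0.02), and VEGFB rose by 0.40, which was not called after TPM rescaling (0.04) and turned to -0.02 with the longest transcript lengths.

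ANGPTL4 encodes a secreted inhibitor of lipoprotein lipase (Entrez 51129, chr19:8363289-8374373, plus strand, 7 exons). It measured 9.13, 8.92 and 9.66 FPKM in siControl and 8.68, 9.44 and 7.68 in siUSP32. These ranges overlap, and siUSP32 library 2 was inside the siControl range. On the log2 scale the groups differed by -0.10 ± 0.08 (SE, limma adjusted p = 0.294, exact permutation p = 0.4). It was called lower after TPM rescaling (-0.44, adjusted p = 5.96e-04), after length correction (-0.30, adjusted p = 0.00384) and without siUSP32 library 2 (-0.16, adjusted p = 0.0487), and turned upward without a call after median-ratio scaling (0.03) and quantile normalization (0.18). RAB11B-AS1 overlaps its exons on the other strand, with the same limit as for the antisense genes of HIF1A.

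The enzyme that ANGPTL4 inhibits and the proteins of lipid droplets were listed together. LPL, lipoprotein lipase, was 7.18-fold lower, at 2.08 ± 0.145 FPKM in siControl and 0.290 ± 0.0794 in siUSP32. HILPDA, a member that encodes a small lipid droplet protein inhibiting the lipase PNPLA2 (Entrez 29923, chr7:128455849-128458418, plus strand, 2 exons), measured 12.6, 11.4 and 12.5 FPKM in siControl and 13.1, 13.3 and 14.0 in siUSP32. Its groups did not overlap, but the gap was small and the test was not passed (0.13 ± 0.06 SE, limma adjusted p = 0.0781). HILPDA was called higher after median-ratio scaling (0.26, adjusted p = 0.00336) and quantile normalization (0.33, adjusted p = 9.35e-04) and turned lower after TPM rescaling (-0.21, adjusted p = 0.0368) and length correction (-0.23, adjusted p = 0.0133). AC010655.2 and AC010655.4 overlap the exons of HILPDA on the same strand, where strand would not separate the reads.

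Some other lipid droplet genes were called higher. G0S2, a second inhibitor of PNPLA2, was 3.71-fold higher at 37.2 ± 1.79 and 138 ± 9.31 FPKM. PNPLA2 was 1.78-fold and PLIN2, which coats lipid droplets, 1.71-fold higher. Of the 10 listed genes 6 were tested, with 3 called higher, 1 lower and 2 not called (PLIN3 at 0.02 and ABHD5 at -0.11), at a median of 0.37.

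NDRG1 encodes a cytoplasmic protein of stress responses and differentiation and lies on chromosome 8 (Entrez 10397, minus strand, 16 exons). It measured 100.2, 104 and 105 FPKM in siControl and 157, 150.0 and 162 in siUSP32. Each siUSP32 library exceeded each siControl library by a wide margin. The mean rose from 103 ± 2.57 to 156 ± 6.09 FPKM (0.59 ± 0.05 SE, limma adjusted p = 5.27e-06), and the call held under all 17 alternatives, from 0.23 to 0.77. The related genes did not move with it by the same amount, with NDRG4 higher (0.45, not called after TPM rescaling at 0.16) and NDRG2 and NDRG3 slightly lower (-0.14 and -0.17, not called after median-ratio scaling or quantile normalization).

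CA9 encodes carbonic anhydrase 9, a membrane enzyme that acidifies the surroundings of hypoxic cells (Entrez 768, chr9:35673856-35681159, plus strand, 11 exons). It measured 1.5, 1.0 and 1.15 FPKM in siControl and 0.480, 0.490 and 0.440 in siUSP32. All siUSP32 libraries lay below the siControl libraries, but all values were low, ranking above 1.8% of tested genes in siControl. Its mean over the 6 libraries, 0.843 FPKM, failed the filter, and the means were 2.59-fold apart. In the fit without the filter its log2 difference was -0.59 (limma adjusted p = 8.25e-04). An exon of CA9 overlaps ARHGEF39 on the other strand, which averaged 12.1 ± 0.531 FPKM in siControl and 13.2 ± 0.397 in siUSP32 and was not called. Of 6 other carbonic anhydrases 5 were tested, and CA2 was called, lower by 0.27 as deposited but at 0.01 after quantile normalization.

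BNIP3 encodes a receptor that tags mitochondria for removal by autophagy (Entrez 664, chr10:131966455-131982013, minus strand, 6 exons). It measured 0.14, 0.05 and 0.14 FPKM in siControl and was listed at 0 in all 3 siUSP32 libraries. These values are near the bottom of the table in both groups, so no fold is given. RefSeq names 46 pseudogenes of BNIP3, and how reads matching several genes were counted is not given in the sources used here. BNIP3L, its close relative with the same function, was well measured at 39.7 ± 0.716 and 35.6 ± 1.03 FPKM. It was called slightly lower (-0.16, limma adjusted p = 0.0164), which was not called after median-ratio scaling (-0.02) or length correction (-0.0050). Of the 6 other mitophagy receptors, BNIP3L included, 4 were called higher and 2 lower (2 and 2 after TPM rescaling), and FKBP8 was 1.97-fold and BCL2L13 1.55-fold higher.

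**Figure D3:**
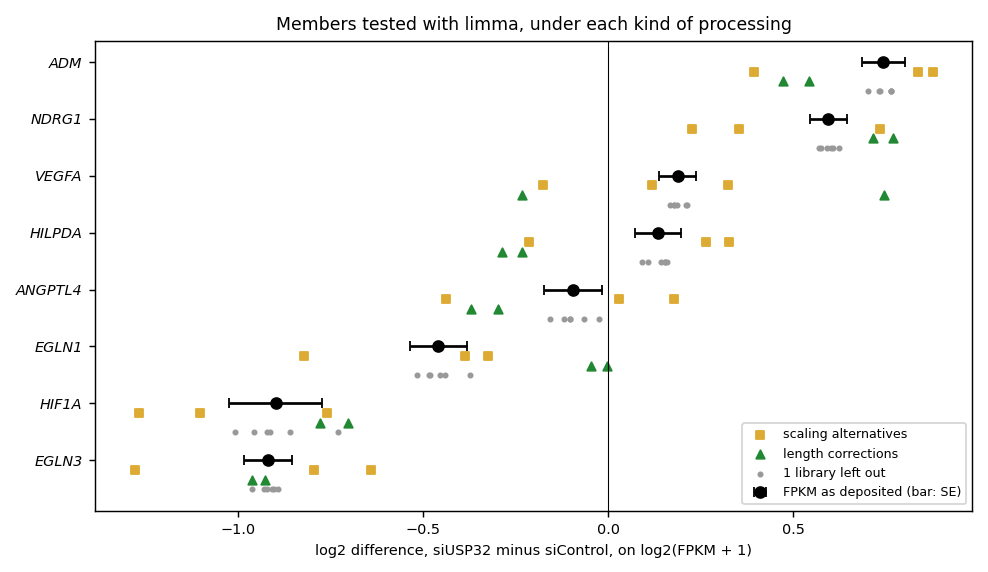
Log2 difference (siUSP32 minus siControl) of the 8 tested members with FPKM as deposited (black, bar for SE), after 3 other scalings, after 2 length corrections, and with 1 library left out. HIF1A and EGLN3 stay below 0 and ADM and NDRG1 above 0 in every setting drawn, EGLN1 reaches -0.0027 after length correction, and VEGFA, ANGPTL4 and HILPDA lie on both sides of 0.

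The scalings shifted the table as a whole, and quantile normalization also moved genes by unequal amounts. The median log2 difference over all tested genes was -0.06 as deposited, -0.39 after TPM rescaling, 0.06 after median-ratio scaling and 0.10 after quantile normalization. Measured from that median in each of the 4 scalings, HIF1A lay between -1.20 and -0.82, EGLN3 between -0.89 and -0.74 and EGLN1 between -0.49 and -0.38. On the same measure ADM lay between 0.74 and 0.82, NDRG1 between 0.26 and 0.68, HILPDA between 0.18 and 0.23 and VEGFA between 0.02 and 0.27. ANGPTL4 lay between -0.05 and 0.08. The differences of HIF1A, EGLN1 and EGLN3 thus lay below the median difference, and those of ADM and NDRG1 above it, in all 4 scalings. Length correction, which is not among these 4, brought EGLN1 to -0.01 from the median, or -0.05 with the longest transcript. It brought HILPDA to -0.24, or -0.29 with the longest transcript, and ANGPTL4 to -0.31, or -0.37. VEGFA went to -0.24, or to 0.74 with the longest transcript. HIF1A, EGLN3, ADM and NDRG1 kept their side of the median under both corrections.

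The order of the members by FPKM, a measure per transcript length, also changed. In siControl it ran from HIF1A through NDRG1, VEGFA, EGLN1, ADM, HILPDA, EGLN3, ANGPTL4 and CA9 to BNIP3. The ranges of HILPDA and EGLN3 overlapped there, and all other neighbours were apart. In siUSP32 NDRG1 stood above HIF1A, ADM above EGLN1 and ANGPTL4 above EGLN3, with no overlap between neighbours.

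A ratio of 2 genes within a library does not depend on a single scaling factor for that library, apart from the pseudocount of 1. Quantile normalization and length correction do alter it, and the ratios here are of FPKM as deposited. NDRG1 against HIF1A had a mean log2 ratio of -0.35 ± 0.05 in siControl and 1.14 ± 0.24 in siUSP32 (SD, n = 3 each), so NDRG1 stood below HIF1A in all 3 siControl libraries and above it in all 3 siUSP32 libraries. The ratio to HIF1A rose by 1.64 for ADM, 1.49 for NDRG1, 1.09 for VEGFA, 1.03 for HILPDA, 0.80 for ANGPTL4 and 0.44 for EGLN1. In these 6 cases the groups did not overlap, with an exact two-sided permutation p of 0.1, the smallest that 3 against 3 libraries can give, and 0.133 after Benjamini-Hochberg adjustment over the 8 ratios. The design cannot reach a threshold of 0.05 by this test.

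Of the tested members, EGLN3 was the one whose ratio did not separate the groups. Its ratio to HIF1A averaged -3.42 ± 0.05 in siControl and -3.44 ± 0.27 in siUSP32, a difference of -0.02 with overlapping groups (exact permutation p = 0.8). The difference was of either sign when 1 library was left out, from -0.16 to 0.10. The -0.16 came without siUSP32 library 2, and there the groups no longer overlapped. After quantile normalization EGLN3 differed by -0.64 and HIF1A by -1.10, and after length correction by -0.93 and -0.70, so the closeness of their changes holds for FPKM as deposited and for a single factor per library. CA9 also overlapped, at 0.31 with the pseudocount of 1 (exact permutation p = 0.3) but -0.28 with 0.1 and -0.44 with none, since its FPKM are close to the pseudocount.

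**Figure D4:**
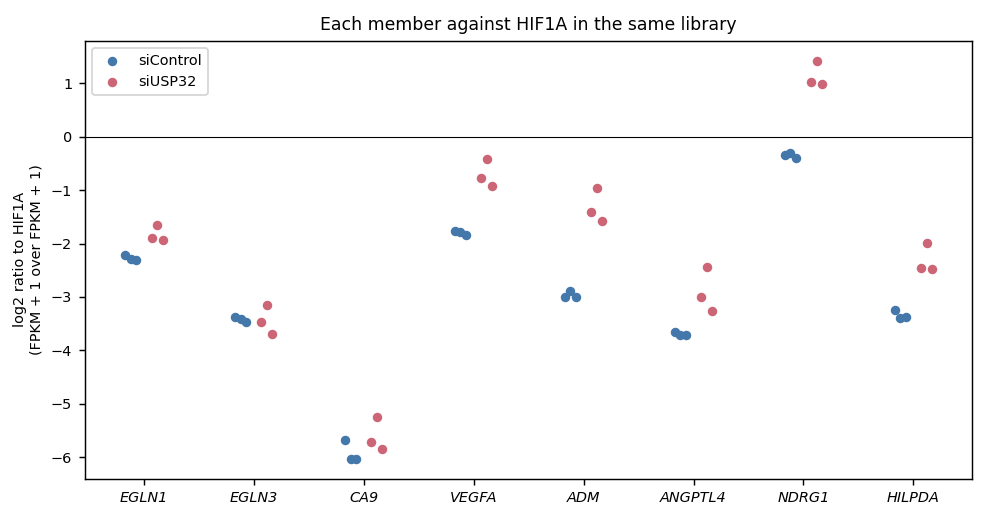
Log2 ratio of each member to HIF1A in the same library, on FPKM + 1, with 3 points for each group. The siUSP32 points lie above the siControl points for EGLN1, VEGFA, ADM, ANGPTL4, NDRG1 and HILPDA, those of NDRG1 cross 0, and those of EGLN3 and CA9 overlap (CA9 turns negative, at -0.28, with a pseudocount of 0.1).

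The wider set of HIF targets also held genes that rose and genes that fell. Of 38 other targets outside glycolysis, 34 were tested, with 7 called higher, 22 lower and 5 not called, and a median of -0.47 beside -0.06 over all tested genes. The split was 4 higher and 27 lower after TPM rescaling, 11 and 18 after quantile normalization, and 9 and 17 after length correction. DDIT4, which encodes the mTOR inhibitor REDD1, was 5.81-fold higher, from 21.98 ± 0.367 to 128 ± 3.67 FPKM. JMJD6, PLIN2 and ANKRD37 were 1.57-fold, 1.71-fold and 1.54-fold higher, ANKRD37 without a call after length correction (0.14). At the other end LOX, a collagen cross-linking enzyme, was 5.62-fold lower, the growth factor receptor MET 5.54-fold and TMEM45A 4.86-fold lower.

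HIF targets of glycolysis held 7 called higher, 8 lower and 4 not called of 19, at a median of -0.05. The sugar and lactate carriers fell, with SLC2A1 3.81-fold, SLC2A3 5.40-fold and SLC16A3 2.71-fold lower. Among the enzymes, PFKL rose 2.11-fold and ALDOA 1.63-fold, PFKFB4 was 1.64-fold lower, and ENO1 and TPI1 were 1.44-fold and 1.43-fold higher as deposited but -0.03 and -0.05 on the log2 scale, without a call, after quantile normalization.

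Proteins that HIF needs or competes with at its targets were listed as 9 coactivators and antagonists, of which 6 were called higher and 3 lower. TPM rescaling left 2 higher and 3 lower. The acetyltransferases EP300 and CREBBP, which HIF recruits, fell 3.50-fold and 2.58-fold, EP300 going from 6.49 ± 0.124 to 1.86 ± 0.253 FPKM. NCOA1 was 1.91-fold lower, not called after length correction (-0.12). CITED4, which competes with HIF for EP300 and CREBBP, was 2.28-fold higher. RACK1, which takes part in oxygen-independent degradation of HIF-1 alpha, rose by 0.61 as deposited, with 0.04 and no call after quantile normalization. The chaperones HSP90AA1 and HSP90AB1, which protect that subunit, rose by 0.50 and 0.47 as deposited but lay at -0.06 and -0.02, not called, after quantile normalization.

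**Figure D5:**
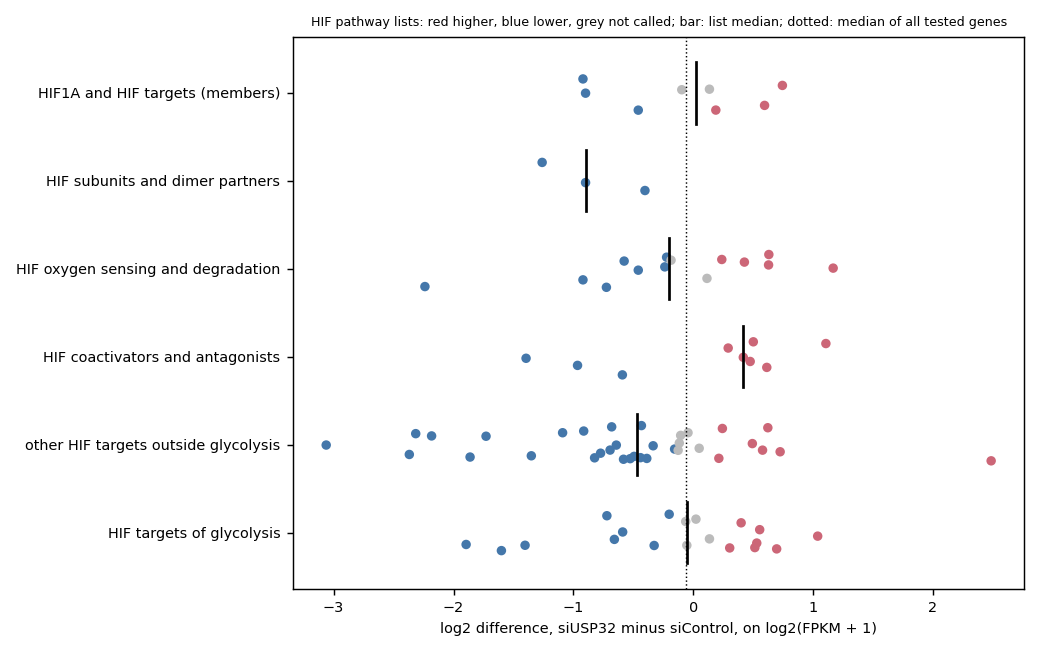
Log2 difference (siUSP32 minus siControl, FPKM as deposited) of each tested gene in the members and in 5 HIF pathway lists, with a bar at each list's median and a dotted line at the median of all tested genes, -0.06. The list of other targets outside glycolysis has its median at -0.47, the coactivators at 0.42 (-0.02 after quantile normalization), and the members at 0.02 (-0.33 after TPM rescaling) with points on both sides.

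A list of 8 genes of the integrated stress response, the program run by the factor ATF4, was measured because several HIF targets, DDIT4 and VEGFA among them, are also known to answer to it. All 8 were called higher, at a median of 1.87. ATF4 was 3.56-fold, DDIT3 8.53-fold, TRIB3 7.99-fold and ASNS 3.93-fold higher. Their part in the values of the members was not tested.

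Across the table, the calls went with a feature of the encoded protein. A strongly hydrophobic segment was found as 19 residues whose Kyte-Doolittle hydropathy averages 1.6 or more, as in many signal peptides and membrane anchors. Genes whose protein has one were called lower in 62.6% and higher in 18.6% of 3879 cases. Genes without one were called lower in 31.1% and higher in 40.5% of 8080 cases. Of the tested members, ADM, ANGPTL4 and HILPDA carry such a segment, and 1 of these 3 was called higher and none lower. The other 5 carry none by this rule, of which HIF1A, EGLN1 and EGLN3 were called lower and VEGFA and NDRG1 higher, as deposited. The rule does not find every secreted protein, since VEGFA is a secreted growth factor. A gene without a segment may therefore still encode a signal peptide. Called lower were also 11 of 21 other targets without a segment and 11 of 13 with one. CA9 and BNIP3 carry a segment and were below the filter.

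Among the genes whose 6 log2 values, centred on the gene's mean, lay closest to those of HIF1A were TRAPPC8 and PKD1, at Euclidean distances of 0.0538 and 0.0925 over the 6 libraries. TRAPPC8 measured 11.7, 11.8 and 12.9 FPKM in siControl and 6.46, 4.46 and 6.86 in siUSP32. As with HIF1A, siUSP32 library 2 was the lowest and siControl library 3 the highest. Such likeness follows from choosing the closest genes over these same 6 values and is no separate result.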

How the data were processed

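RNA of 6 libraries was harvested in Trizol and sequenced after preparation for an MGISEQ-2000RS instrument, per the labels' protocols. The authors deposited FPKM with 2 decimals, per the file headers, in 1 table per library. The genome was GRCh38.p13 according to the submitters' processing notes. How reads were aligned, counted and assigned to strands is not given in the sources used here. FPKM is not a count, so tests used log2(FPKM + 1), which understates changes of low genes, on 12003 genes whose FPKM averaged 1 or more. Folds are ratios of mean FPKM.

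The comparison used limma 3.58.1 under R 4.3.3 (mean-variance trend, no covariate, two-sided, Benjamini-Hochberg over all tested genes, called under 0.05), and single values also by exact permutation of the libraries. Libraries of a group shared at most 0.783% of identical values.

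Gene positions and transcript lengths came from GENCODE 29, matched for 11962 tested genes (principal transcript, GRCh38), and promoter sequences from RefSeq. Length was corrected per library with a loess curve (span 0.5). That curve with the longest transcripts and ratios without a pseudocount were added after seeing the data. Other alternatives were pseudocount 0.1, no filter, a minimum FPKM of 5, TPM, median-ratio and quantile scaling, no trend, array weights, a replicate block, and dropping each library in turn. Named genes were all members, the HIF subunit and oxygen-sensing lists, up to 4 rises and 4 falls of smallest adjusted p with separate groups in every other list, the 3 genes nearest to HIF1A, and USP32. Of these, 2 genes are not reported here. CALCRL, RAMP2, RAMP3, KDR, FLT4, PLIN3, ABHD5, ESR1 and PTPRC were named in addition, after their values were seen. The members and lists were chosen with earlier results of these data known.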

Additional observations from a re-analysis of the deposited data

How the results depend on the processing

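HIF1A, EGLN3, ADM and NDRG1 kept their direction and call under all 17 alternatives. The number of members called lower was 3 as reported, 5 without the filter, 6 after TPM rescaling and 5 after length correction, and 3 to 4 when 1 library was left out. The number called higher was 3 in each fit with 1 library left out. The number of genes called, 8957, ranged from 6645 (minimum FPKM of 5) to 10067 (no filter), and from 8217 to 9337 with 1 library left out. VEGFA reversed to -0.18 after TPM rescaling and -0.23 after length correction. ANGPTL4 reversed to 0.0297 after median-ratio scaling and 0.18 after quantile normalization. HILPDA reversed to -0.21 after TPM rescaling, -0.23 after length correction and -0.29 with the longest transcripts. The cause of these reversals was not tested. The ratio of CA9 to HIF1A reversed to -0.28 with a pseudocount of 0.1 and -0.44 with none. The ratio of EGLN3 to HIF1A reversed to 0.0024 without siControl library 1 and 0.10 without siUSP32 library 3, in a range of -0.16 to 0.10 with 1 library left out.

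Samples with the same replicate number deviated together weakly at most (r = -0.08, 0.07 and 0.12 across genes for numbers 1 to 3). siControl library 1 correlated best with siUSP32 library 2 (r = 0.08), whereas siControl libraries 2 and 3 correlated best with the siUSP32 library of their own number. With values this small, the numbers were not taken to pair the samples. With the replicate number as a block, 8995 genes were called, with 3 members higher and 3 lower, and HIF1A differed by -0.90. Depth is unknown, so counting error could not be separated from other spread for CA9 and BNIP3.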
